A study of Mus musculus with 3 samples.

Results

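A set of 100 genes stood highest after 3 days of leukocyte cell-derived chemotaxin 2 (LECT2) and lower both before LECT2 and after 5 days of it. The genes with the highest values were Cd101, Mmp25, Dhrs9 and Olfm4, of which Cd101, Mmp25 and Olfm4 are known from neutrophils. The set also held Cd33, Cxcr2, Itgam and Mmp9 of phagocytes and the interferon-induced antiviral genes Oas2, Oas3 and Oasl2. The members were chosen by a rule from the same values that are described here. Among the 10603 genes with at least 50 reads at 3 days, of 17559 listed in all, the smaller of the log2 ratio of 3 over 0 days and the log2 ratio of 3 over 5 days was taken, and the 100 genes with the highest value were kept. This smaller ratio is called the peak value below. The ratios were computed from RPKM (read counts divided by transcript length and library size) with 0.1 added. A peak value above 1, a difference of more than 2-fold from both other time points, was found for 21 of the 100 genes, which is 0.198% of the genes to which the rule was applied. As the rule used both ratios, this count and those of the ratios below are descriptions and carry no test.

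Bone marrow (BM) cells were flushed from the long bones and pelvis of C57BL/6 mice aged 6 to 8 weeks, and their mRNA was sequenced. LECT2, a chemotactic protein that is made mainly by the liver, was given as a recombinant protein under the skin at 300 μg per kg body weight daily for 3 or 5 days, and the third group had 0 days of LECT2. Each of the 3 time points was 1 library, and neither the number of mice behind a library nor a vehicle injection at 0 days was stated. The question was which genes of the BM differed transiently, in the library of 3 days but no longer in that of 5 days.

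The libraries held from 15146983 to 15514673 and 15523952 reads on genes at 3, 5 and 0 days, so depth differed little. Markers of late neutrophils, erythroid cells and B cells, which are common cell types of BM, were present in all 3 libraries. The libraries were not centred alike. The median over the 10603 genes was 0.12 for 3 over 0 days, -0.25 for 3 over 5 days and 0.34 for 5 over 0 days on the log2 scale. After scaling by the trimmed mean of M values (TMM), these medians were 0.04, -0.02 and 0.03. Values below are as deposited, and TMM scaling would set the level of every gene at 5 days lower relative to 0 days by about that median shift. With 1 library per time point, no difference has a replicate check. The 95% exact intervals given below are those of the ratio of read counts without the added 0.1. They cover the counting of reads only, and reads multiplied by PCR are not independent molecules. The methods describe the material as flushed BM cells, while a legend in the supplement calls it BM mononuclear cells, a fraction that holds few mature neutrophils, and which of them was sequenced was not settled. In such mixed cells, fewer cells of a type and less RNA per cell cannot be told apart.

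Neutrophils are the most abundant granulocytes of the BM. They mature there from promyelocytes, which fill the primary granules, through stages that make the secondary and tertiary granules, and they gain receptors for chemoattractants and microbial products last. Granulocyte colony-stimulating factor drives this maturation, and the chemokine receptor CXCR2 draws mature neutrophils into the blood. Interferons act on nearly all of these cells through STAT proteins and switch on antiviral genes that share a short promoter element, the interferon-stimulated response element (ISRE).

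Over the 100 members the median log2 ratio was 0.85 for 3 over 0 days and 1.01 for 3 over 5 days. The ratio to 0 days was above 1 in 33 members, where 4.03% of all tested genes were, and the ratio to 5 days was above 1 in 50 members, where 3.05% of all tested genes were. The comparison with 0 days set the peak value in 64 members and that with 5 days in 36. The peak value ran from 2.05 for Cd101 down to 0.60 for Fgr and Lct and 0.59 for Osgin1, the last genes inside the set. Just outside it lay Card10, H2-T24 and Pfkfb4 at 0.59 each. The set thus ended in a continuous range, and 14% of all tested genes were higher at 3 days than at both other time points.

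Of all reads on genes, the members took 0.627% before LECT2, 1.08% at 3 days and 0.469% at 5 days. Their RPKM at 3 days ran from 0.599 to 556, with 32 genes below 5 RPKM and 13 genes at 50 RPKM or more. At 3 days, 68 members had at least 200 reads, 36 had at least 1000 and 16 had fewer than 100. Of the 21 genes with a peak value above 1, 11 had fewer than 200 reads at 3 days. The counting intervals of both ratios lay above 0 for all 100 members, where 6.93% of all tested genes met this. They lay above 1 for 5 members, namely Cd101, Mmp25, Dhrs9, Olfm4 and Cd33. The rule chose the members by these same counts, so this outcome was largely set in advance and lends no support to a peak. The intervals do not allow for the choice of the highest values. In the plot of both ratios the members form the upper right corner of the cloud of genes, and genes with far larger ratios to 5 days lie above and to the left of them.

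**Figure D1:**
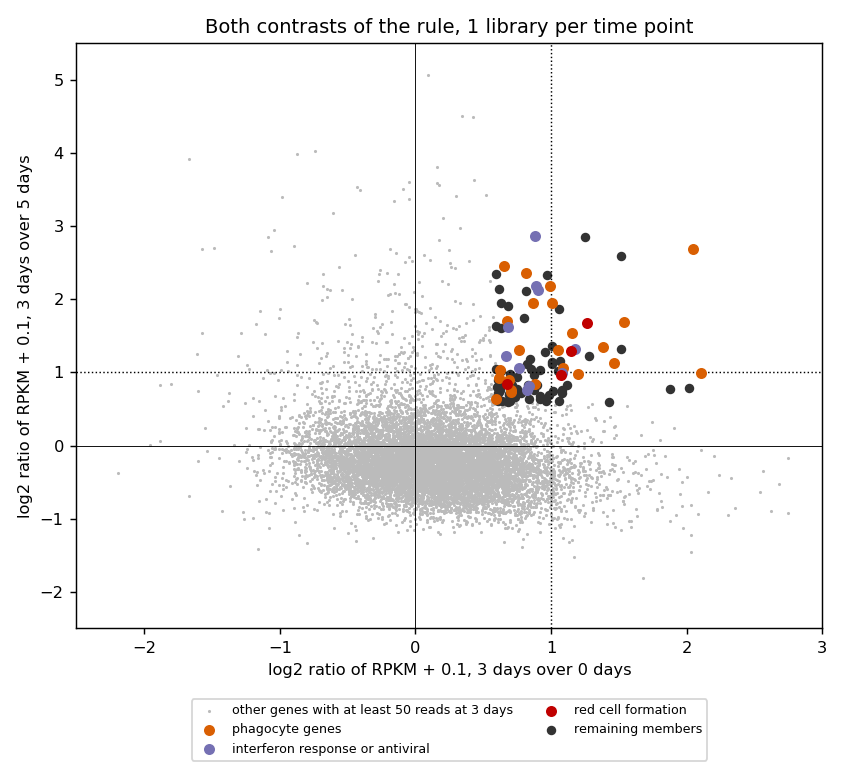
Log2 ratio of RPKM + 0.1 of 3 over 0 days (horizontal) and of 3 over 5 days (vertical) for the 10603 genes with at least 50 reads at 3 days, with 1 library per time point and dotted lines at a ratio of 1. The 100 members are drawn as large points, coloured for phagocyte genes, interferon response and red cell formation, and 21 of them lie beyond both dotted lines.

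Receptors and adhesion molecules of phagocytes made up 12 members, with 5 of them above a peak value of 1. This group, like the other groups by role, was drawn up after the values were seen. Cd101, an inhibitory surface glycoprotein that marks the most mature neutrophils of mouse BM, had 1.92 RPKM before LECT2, 8.24 RPKM at 3 days and 1.19 RPKM at 5 days. It rested on 97, 406 and 60 reads, and its log2 ratio of 3 over 0 days was 2.05 (95% counting interval 1.78 to 2.44) and that of 3 over 5 days 2.69 (2.40 to 3.21). It was the only member with a peak value of 2 or more.

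Cd33, a sialic acid-binding lectin of myeloid cells, stood at 37.0, 82.7 and 28.3 RPKM at 0, 3 and 5 days. Ptafr, the receptor for platelet-activating factor, stood at 5.98, 16.7 and 7.58 RPKM. Tlr5, the receptor for bacterial flagellin, stood at 0.823, 3.87 and 1.89 RPKM. As deposited, the log2 ratio of 5 over 0 days was -0.39 for Cd33 and 0.34 (0.04 to 0.64) for Ptafr. For Tlr5 it was 1.11 (0.65 to 1.76), from 41 and 94 reads, the largest departure of the 3 genes in these values. After TMM scaling the ratios of Cd33, Ptafr and Tlr5 were -0.70, 0.03 and 0.82. With a trend of the ratios with gene length removed they were -0.73, 0.22 and 0.64.

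Cxcr2, the chemokine receptor that lets mature neutrophils leave the marrow, had 63.8 RPKM before LECT2, 112 RPKM at 3 days and 21.9 RPKM at 5 days. The 3-day library was 0.82 above 0 days on the log2 scale (0.75 to 0.88) and 2.35 above 5 days (2.26 to 2.46). For Cxcr2 the distance of the 3-day library to 5 days was thus the larger of the pair. Itgam, which encodes CD11b, the alpha chain of the integrin Mac-1 on neutrophils and monocytes, had 165, 269 and 160 RPKM. The log2 ratio of 5 over 0 days was -0.05 for Itgam and -1.54 for Cxcr2 as deposited, while for Itgam it was -0.36 after TMM scaling and -0.68 after a trend of the ratios with gene length was removed.

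Other receptors of the group were Clec7a, the beta-glucan receptor Dectin-1, with 54.3, 87.5 and 47.0 RPKM, and Tlr13, a sensor of bacterial ribosomal RNA, with 25.9, 42.2 and 25.3 RPKM. Cd300lb and Cd300ld, both activating receptors of the CD300 family, peaked at 47.6 and 20.4 RPKM. Sirpb1b, of the signal regulatory proteins, had 2.58, 5.60 and 2.63 RPKM. Gm5150, which lies near Sirpb1b with 1 protein-coding gene between them, had 2.26, 6.65 and 2.61 RPKM. Both genes belong to a family of similar copies, so reads may have been split between copies.

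Csf3r, the receptor for granulocyte colony-stimulating factor, entered the set through a row whose RefSeq identifier is of a non-coding transcript, with 25, 57 and 20 reads, or 0.408, 0.953 and 0.327 RPKM. The row of its coding transcript held 3, 1 and 2 reads. Reads may have been split between transcripts of the gene, the value of Csf3r is uncertain, and it does not show the level of the receptor mRNA.

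Enzymes and secreted products of phagocytes made up 6 members. Mmp25, a membrane-anchored matrix metalloproteinase of neutrophils also known as leukolysin, had 18.9, 55.0 and 17.0 RPKM at 0, 3 and 5 days. Its log2 ratio was 1.54 (1.44 to 1.65) to 0 days and 1.69 (1.59 to 1.80) to 5 days. Olfm4, a secreted glycoprotein stored in the granules of a subset of neutrophils, had 22.3, 58.3 and 23.0 RPKM, with ratios of 1.38 (1.24 to 1.53) and 1.34 (1.21 to 1.49). Mmp25 and Olfm4 had log2 ratios of 5 over 0 days of -0.15 and 0.04 as deposited, and of -0.46 and -0.27 after TMM scaling.

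Mmp9, the gelatinase of neutrophil tertiary granules, was the most abundant member with 353, 556 and 101 RPKM. Its log2 ratio of 3 over 0 days was 0.66 (0.63 to 0.68) and that of 3 over 5 days was 2.46 (2.42 to 2.51). Alox5, the lipoxygenase that starts leukotriene synthesis, had 55.6, 85.4 and 44.8 RPKM. Vnn3, a pantetheinase of the vanin family, had 1.60, 3.32 and 0.783 RPKM, and Mgam, a maltase-glucoamylase, had 5.71, 8.86 and 4.29 RPKM. The log2 ratio of 5 over 0 days was -1.81 for Mmp9 and -0.95 for Vnn3, whose counting interval of -1.84 to -0.27 reaches the value of Mmp9.

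Signalling and inflammasome genes of phagocytes gave 5 further members. Pram1, an adaptor of neutrophil integrin signalling, had 84.2, 155 and 86.4 RPKM. Fgr, a Src family kinase of myeloid cells, had 61.2, 92.6 and 59.3 RPKM. Lrrk2, a large kinase present in myeloid cells and known from Parkinson's disease, had 9.37, 21.7 and 11.0 RPKM. Their log2 ratios of 5 over 0 days were 0.04, -0.05 and 0.23 as deposited, and -0.22, -0.54 and -0.61 with the trend of the ratios with gene length removed. Nlrp12, which restrains inflammatory signalling, had 2.69, 5.44 and 1.12 RPKM, and Trpm2, a calcium channel opened by oxidants, had 6.06, 11.2 and 2.81 RPKM. The last of these genes ended more than 1 log2 unit below 0 days, at -1.08, as did Nlrp12 at -1.20.

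**Figure D2:**
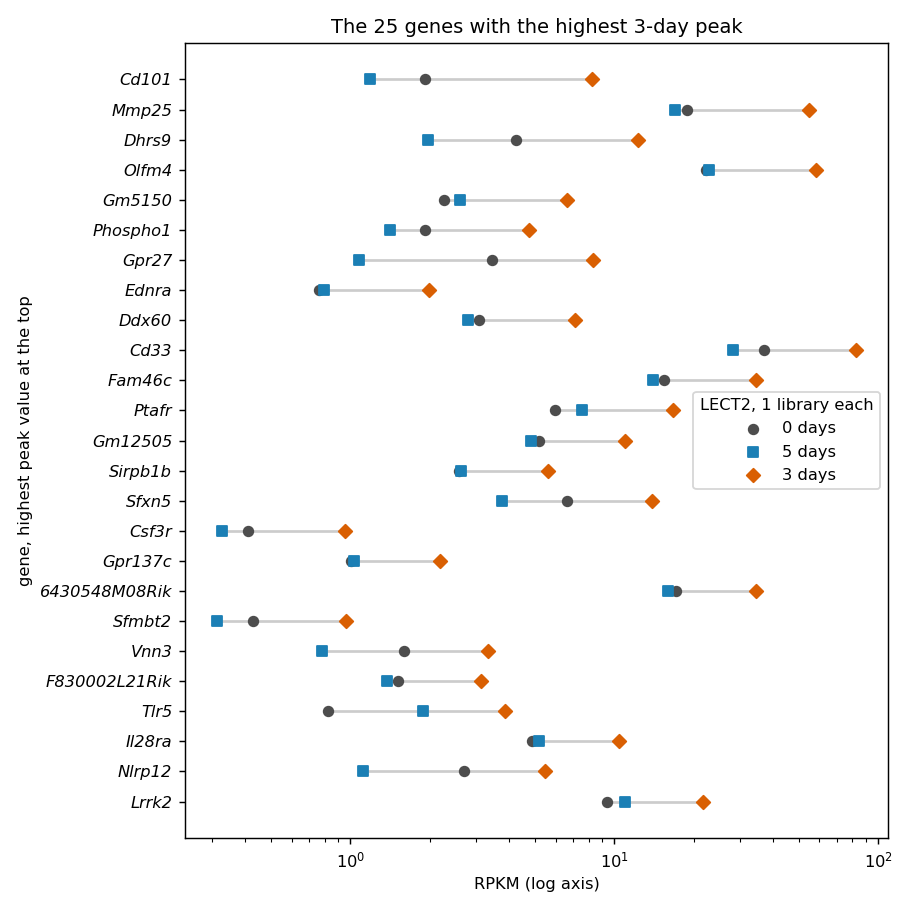
RPKM (log axis) of the 25 genes with the highest peak value, 1 per row with the highest at the top, in the libraries of 0 days (circles), 3 days (diamonds) and 5 days (squares). In each row the 3-day diamond lies to the right of both other points, and Cd101 at the top goes from 1.92 to 8.24 and back to 1.19 RPKM.

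In the whole list of late neutrophil markers, 3 of 18 rows with at least 50 reads were members, namely Cxcr2, Mmp9 and the non-coding row of Csf3r. Each of the 18 was more than 1 log2 unit higher at 3 than at 5 days, with a median of 2.004 beside -0.25 over all tested genes. At 3 days 10 of 18 were higher than at 0 days, where 59.8% of all tested genes were, with a median of 0.12 beside 0.12 over all tested genes. After TMM scaling 9 of 18 were, where 53.2% of all tested genes were. The summed level of the list was 150454, 116657 and 41620 RPKM at 0, 3 and 5 days, so the most abundant neutrophil transcripts were highest at 0 days. S100a8 and S100a9, the subunits of calprotectin, had log2 ratios of 3 over 0 days of -0.26 and -0.48. The rows of the list are short, with a median length of 731.5 bases beside 3465 for the members, and S100a8 and S100a9 have 392 and 488 bases. In the shortest length decile the median ratio of 3 over 0 days over all tested genes was -0.45. The part of length in the difference between the list and the members was not tested. The part of the neutrophil transcripts in the members' lower 5-day values was not tested.

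Of the 18 rows of the monocyte and macrophage list, 1 was a member (Itgam), 16 were above 0 days at 3 days, where 59.8% of all tested genes were, and 5 were above 5 days at 3 days, where 26.6% were. After TMM scaling these counts were 15 and 8, beside 53.2% and 47.4%, and 5 rows were higher than at both other time points, where 22.6% of all tested genes were, compared with 3 rows and 14% as deposited. The list of primary granule genes of promyelocytes, with 7 rows, had a median of -0.15 for 3 over 0 days and -0.60 for 3 over 5 days. In the cell cycle list none of the 23 rows was higher at 3 than at 5 days, where 26.6% of all tested genes were, nor after TMM scaling, where 47.4% were. Of the 30 lists in all, 5 held a member, and these members were 8 genes with Mmp9 in the lists of late neutrophils and of osteoclasts. With 100 members among 10603 genes, most lists of this size would hold none.

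**Figure D3:**
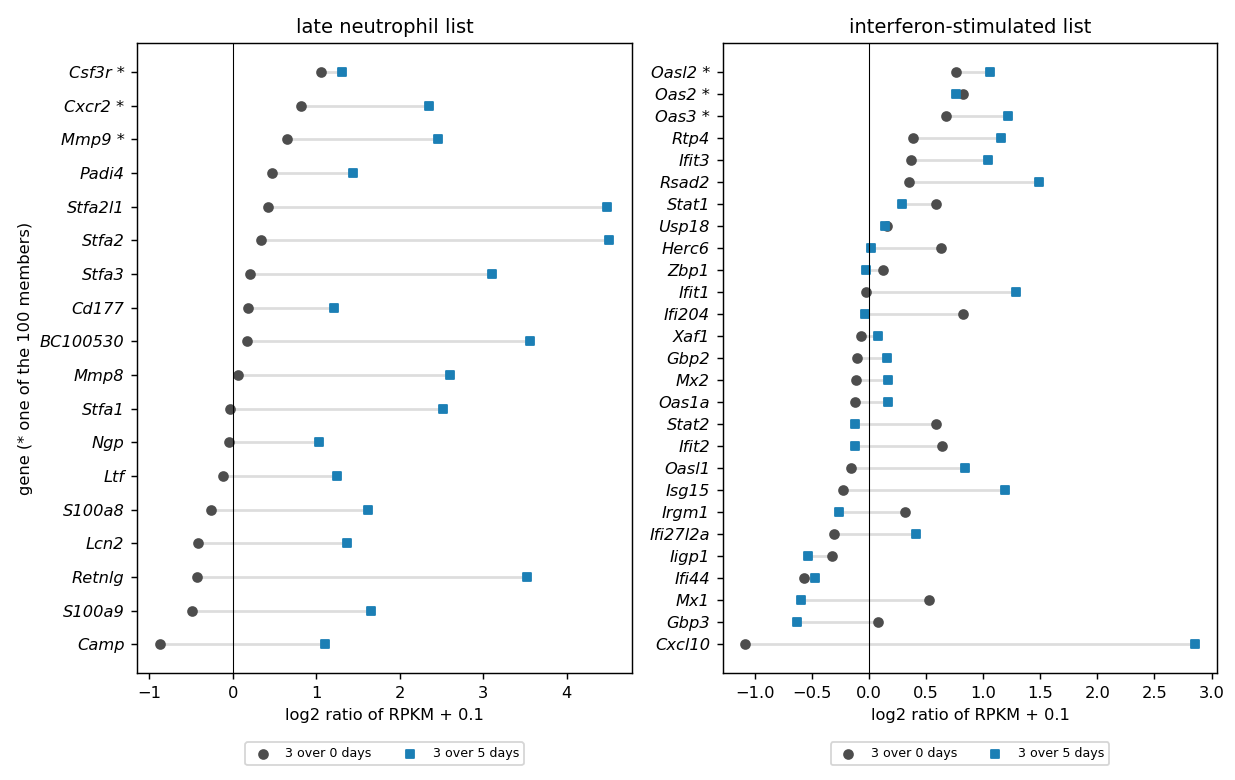
Log2 ratio of RPKM + 0.1 of 3 over 0 days (circles) and 3 over 5 days (squares) for each gene with at least 50 reads at 3 days in the late neutrophil list (left, 18 rows) and the interferon-stimulated list (right, 27 rows), with members of the set starred. The squares of the left panel lie above 1 while the circles lie on both sides of 0, and in the right panel 9 genes have both points above 0.

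Genes of the interferon response or of antiviral defence made up 10 members. Their summed level was 202 RPKM before LECT2, 364 RPKM at 3 days and 118 RPKM at 5 days, and Slfn4 made up a large share of it. Slfn4, a Schlafen protein of myeloid cells that interferon induces, had 96.6, 179 and 39.2 RPKM, with log2 ratios of 0.89 (0.84 to 0.93) to 0 days and 2.19 (2.13 to 2.25) to 5 days. Ddx60, a helicase that promotes the sensing of viral RNA, had the highest peak value of the group with 3.09, 7.10 and 2.79 RPKM. Il28ra, listed in RefSeq as Ifnlr1, encodes the ligand-binding chain of the receptor for type III interferons and had 4.86, 10.4 and 5.17 RPKM.

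Oas2, Oas3 and Oasl2 belong to the family of 2′-5′-oligoadenylate synthetases, which sense double-stranded RNA and activate RNase L, although Oasl2 is a related family member known by its ubiquitin-like domains. Oas2 had 14.1, 24.9 and 14.7 RPKM, Oas3 had 30.3, 48.2 and 20.7 RPKM and Oasl2 had 24.2, 41.2 and 19.7 RPKM. The ratios of 3 over 0 days lay close together, at 0.82 (0.70 to 0.95), 0.67 (0.60 to 0.75) and 0.76 (0.66 to 0.87). Oas2 and Oas3 are direct neighbours on chromosome 5. Oas1a, of the same family, was no member, with 10.9, 10.03 and 8.91 RPKM.

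Genes of the Ifit family, which bind viral RNA, were also present. The gene 2010002M12Rik, listed in RefSeq as Ifit1bl2, had 3.85, 7.16 and 0.900 RPKM, and I830012O16Rik, listed as Ifit3b, had 2.11, 3.44 and 1.06 RPKM. They are direct neighbours on chromosome 19. The first had the highest ratio of 3 over 5 days in the whole set, at 2.86 (2.55 to 3.46), from 365 and 47 reads. Ifit genes are close copies of one another, and reads may have been shared between copies. Trim30b, of the tripartite motif proteins, had 15.4, 28.9 and 6.51 RPKM, and Mov10, a helicase that restricts retroelements, had 7.45, 13.4 and 7.62 RPKM.

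In the list of 27 interferon-stimulated rows, 3 were members and 9 were higher at 3 days than at both other time points, where 14% of all tested genes were. The median of the list was 0.16 for 3 over 0 days and 0.17 for 3 over 5 days, beside 0.12 and -0.25 over all tested genes. After TMM scaling, 13 rows were higher at 3 days than at both other time points, where 22.6% of all tested genes were, and the medians were 0.08 and 0.39. Rsad2 had 60.7, 77.6 and 27.5 RPKM and Ifit3 had 7.80, 10.1 and 4.84 RPKM, with a peak of smaller size. Isg15 fell outside, with 57.8, 49.3 and 21.6 RPKM, as did Cxcl10, with 106, 49.7 and 6.79 RPKM, both being highest at 0 days. Mx1 was highest at 5 days instead, at 5.85, 8.47 and 12.9 RPKM.

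The sequences upstream of 4 members of this group are shown, because they hold the letters of the ISRE. They come from the RefSeq annotation of GRCm38.p6 and give the 250 bases before the start of the transcript, 5′ to 3′ on the strand of the gene. Capitals mark each match, on either strand, to the core letters of the ISRE, GAAA followed by any 2 bases and again GAAA. The windows are chr8:61927837-61928086 on the plus strand for Ddx60, chr5:120777660-120777909 on the minus strand for Oas3, chr19:34640744-34640993 on the minus strand for 2010002M12Rik and chr19:34607707-34607956 on the plus strand for I830012O16Rik.
Ddx60: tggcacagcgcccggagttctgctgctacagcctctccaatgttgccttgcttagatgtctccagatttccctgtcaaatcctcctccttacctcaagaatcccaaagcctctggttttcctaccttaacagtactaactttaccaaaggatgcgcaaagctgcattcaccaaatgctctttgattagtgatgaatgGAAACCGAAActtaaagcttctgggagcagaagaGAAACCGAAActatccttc
Oas3: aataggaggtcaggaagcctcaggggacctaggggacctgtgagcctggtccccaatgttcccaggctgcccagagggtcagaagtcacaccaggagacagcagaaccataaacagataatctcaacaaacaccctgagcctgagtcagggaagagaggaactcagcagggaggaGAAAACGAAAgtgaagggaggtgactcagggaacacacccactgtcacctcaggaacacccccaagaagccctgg
2010002M12Rik: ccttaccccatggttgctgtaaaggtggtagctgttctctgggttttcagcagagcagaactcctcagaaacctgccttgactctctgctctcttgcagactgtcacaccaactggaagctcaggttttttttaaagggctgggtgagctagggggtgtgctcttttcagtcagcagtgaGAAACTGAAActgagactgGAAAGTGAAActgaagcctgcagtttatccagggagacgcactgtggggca
I830012O16Rik: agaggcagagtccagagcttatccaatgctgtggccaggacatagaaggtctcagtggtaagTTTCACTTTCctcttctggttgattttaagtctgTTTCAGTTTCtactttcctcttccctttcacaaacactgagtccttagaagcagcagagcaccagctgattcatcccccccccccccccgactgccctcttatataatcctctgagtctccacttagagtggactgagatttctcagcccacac

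In these windows Ddx60, 2010002M12Rik and I830012O16Rik held a pair of matches each, and Oas3 held a single match. A further window of 2010002M12Rik held no such match and is not shown. In Ddx60 the matches lay from 53 to 44 and from 19 to 10 bases before the start, with the same letters in both, and in I830012O16Rik both lay on the opposite strand, the farther from 188 to 179 bases before it. Over windows of 250 bases before to 50 after the start, 7 of the 113 windows of members (6.19%) held these letters, compared with 3.29% of the 10757 windows of all tested genes and 3.44% of all RefSeq windows. Of these 7 windows, 4 were of the 9 interferon-related genes that had a window, and the others were of Gm5150, Sirpb1b and Numb. A match of letters is a description of the window and does not show a site in use.

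Upstream sequences are shown likewise for Cd101 and Olfm4, which had the 1st and the 4th highest peak value, with a match to the letters of a C/EBP and of a PU.1 element in capitals. C/EBP and PU.1 are transcription factors of the granulocyte and macrophage lineages. The windows are chr3:101029554-101029803 on the minus strand for Cd101 and chr14:80000052-80000301 on the plus strand for Olfm4.
Cd101: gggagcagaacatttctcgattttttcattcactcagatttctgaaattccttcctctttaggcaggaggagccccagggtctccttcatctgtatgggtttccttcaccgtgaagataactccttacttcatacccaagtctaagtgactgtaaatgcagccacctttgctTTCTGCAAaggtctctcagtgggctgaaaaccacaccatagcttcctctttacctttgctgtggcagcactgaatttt
Olfm4: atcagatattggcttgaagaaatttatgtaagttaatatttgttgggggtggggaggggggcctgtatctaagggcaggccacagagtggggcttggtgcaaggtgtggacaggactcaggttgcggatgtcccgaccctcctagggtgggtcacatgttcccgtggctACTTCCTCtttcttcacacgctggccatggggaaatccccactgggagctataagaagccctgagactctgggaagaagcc

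The capitals of Cd101 match TTGCNNAA on the opposite strand, from 78 to 71 bases before the start. This element was present in 7.96% of the members' windows, in 8.59% of those of all tested genes and in 10.8% of all RefSeq windows. The capitals of Olfm4 match GAGGAAGT on the opposite strand, from 81 to 74 bases before the start, an element found in 7.96% of the members' windows, in 3.40% of those of all tested genes and in 3.20% of all RefSeq windows. The 9 windows of members with this element were those of Olfm4, Pram1, Cd300ld, 2010002M12Rik, Numb, B430306N03Rik, Gpr137c, Slc22a15 and 5830416P10Rik. For 2010002M12Rik it was the window without the ISRE letters. In the same order, the AP-1 letters TGANTCA were in 11.5%, 5.22% and 7.81% and TATAAA in 15.04%, 6.98% and 13.6%. The GC box GGGCGG was in 46.9%, 62.8% and 35.7%, so for TATAAA and the GC box the comparison depends on which windows the members are set beside. All letters were searched on both strands, 9 elements were searched in all, and matches of different elements may overlap.

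The promoter windows of the members held less CpG than those of all tested genes, and about as much as RefSeq windows in general. Promoters of widely active genes mostly lie in CpG islands, where the observed over the expected number of CpG is high, while genes of specialised cells often lack them. This ratio was 0.6 or more in 38.1% of the 113 member windows, from 86 members with an entry, compared with 70.6% of those of all tested genes and 35.8% of all RefSeq windows. The median ratio was 0.390 in the members, 0.766 in all tested genes and 0.384 in all windows, and the median GC content was 55.0%, 60.7% and 52.7%. In the phagocyte groups 2 of 23 windows reached 0.6. Of the genes known from germ line, cilia or brain 5 of 7 windows did, a share near the 70.6% of all tested genes. These were windows of Gad1, Slc12a5 and Hspa12a, while those of Sycp2 and Dnahc6 had 0.363 and 0.504. Base composition was not used by the rule, but it goes together with the kind of gene, and no test was made.

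**Figure D4:**
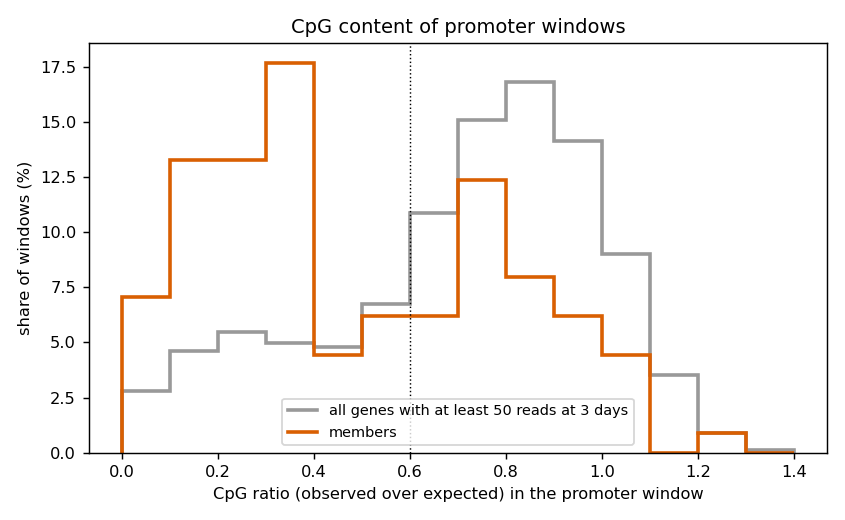
Share of promoter windows (per cent, vertical) by their observed over expected CpG ratio (horizontal) for the members (113 windows) and for all genes with at least 50 reads at 3 days (10757 windows), with a dotted line at 0.6. The windows of all tested genes gather to the right of the line (70.6%) and those of the members to the left of it (38.1% to the right), while 35.8% of all RefSeq windows, not drawn, lie to the right.

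Genes with a role in red cell formation numbered 4. Phospho1, a phosphatase for phosphocholine that rises in maturing erythroblasts, had 1.92, 4.77 and 1.42 RPKM. Fam46c, listed in RefSeq as Tent5c, encodes a poly(A) polymerase of erythroid and plasma cells and had 15.5, 34.4 and 14.0 RPKM. Ube2o, a ubiquitin-conjugating enzyme that clears proteins from reticulocytes, had 11.9, 25.2 and 12.8 RPKM, and Trim10, needed for terminal erythroid differentiation, had 21.4, 34.3 and 19.2 RPKM. Their log2 ratios of 5 over 0 days ran from -0.41 for Phospho1 to 0.11 for Ube2o as deposited, and from -0.57 for Ube2o to -0.33 for Fam46c with the length trend removed.

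Of the 16 rows of the erythroid marker list, 3 were higher at 3 days than at both other time points, a share near the 14% of all tested genes, with the highest peak value in Alas2, the first enzyme of haem synthesis in red cells, at 0.48 and 175, 244 and 107 RPKM. The summed level of the list was 6220, 4944 and 2285 RPKM, and its haemoglobin genes Hba-a1, Hba-a2 and Hbb-b1, of 569, 587 and 626 bases, were highest at 0 days. Their ratios of 3 over 0 days, -0.50, -0.49 and -0.29, compare with the median of -0.45 in the shortest length decile. Fam46c lies close to Cd101 on chromosome 3, with 4 protein-coding genes between them.

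Matrix and vessel genes and secreted ligands gave 5 members. Ednra, the endothelin A receptor, had 0.760, 1.99 and 0.796 RPKM, from 43, 110 and 45 reads. Col1a1, the alpha 1 chain of type I collagen and a product of osteolineage cells, had 13.7, 21.3 and 5.45 RPKM. Inhba, the beta A subunit of activin, had 12.05, 18.7 and 10.3 RPKM, Reln, the secreted glycoprotein reelin, had 1.67, 3.65 and 2.12 RPKM, and Mcam, the adhesion molecule CD146, had 2.65, 4.75 and 1.03 RPKM. Col1a2, whose product pairs with that of Col1a1, was no member, with 12.8, 14.8 and 5.01 RPKM. Of the 8 rows of the osteolineage list, Col1a1 was the only member, 2 were higher at 3 than at 0 days, where 59.8% of all tested genes were, and 7 were higher at 3 than at 5 days, where 26.6% were. The median of the list for 3 over 5 days was 1.05.

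Transcription and cell fate genes gave 5 members. Skil, a repressor of TGF-beta signalling, had 0.228, 1.10 and 0.602 RPKM, from 25, 118 and 66 reads. Numb, an inhibitor of Notch signalling, had 7.75, 21.0 and 13.8 RPKM, and Bcl6, a zinc finger repressor, had 10.03, 20.3 and 12.1 RPKM. Dach1, a transcription factor, had 5.58, 10.3 and 6.04 RPKM and Sfmbt2, a Polycomb group protein, had 0.427, 0.959 and 0.312 RPKM. As deposited, the log2 ratio of 5 over 0 days was 1.10 (0.72 to 2.13) for Skil and 0.83 (0.60 to 1.07) for Numb. The median of the group was 0.27 beside 0.34 over all tested genes. After TMM scaling the ratios were 0.85 for Skil, 0.52 for Numb, -0.04 for Bcl6, -0.19 for Dach1 and -0.59 for Sfmbt2. With the length trend removed they were 0.31, 0.67, -0.22, -0.56 and -1.18 in the same order.

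A group of 6 members is known mainly from germ line, cilia or brain and had low levels throughout. Sycp2, a protein of the synaptonemal complex of meiosis, had 0.917, 1.89 and 0.295 RPKM, and Tex15, a testis protein needed for meiosis, had 1.57, 3.13 and 1.23 RPKM. Dnahc6, an axonemal dynein listed in RefSeq as Dnah6, had 0.560, 0.960 and 0.183 RPKM. Gad1, Hspa12a and Slc12a5 had between 52 and 63 reads at 3 days. Slc12a5, a neuronal chloride transporter, is the direct neighbour of Mmp9 on chromosome 2, so its 32, 63 and 38 reads lie next to a gene with 26829 reads at 3 days. As deposited, the log2 ratio of 5 over 0 days was 0.20 (-0.47 to 0.97) for Slc12a5 and -1.81 for Mmp9. After TMM scaling it was -0.05 and -2.11, and with the length trend removed -0.54 and -2.27. Whether reads of Mmp9 entered the count of Slc12a5 was not tested.

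The remaining 47 members fell into none of these groups. Dhrs9, a retinol dehydrogenase, stood 3rd in the set with 4.25, 12.4 and 1.97 RPKM and ratios of 1.52 (1.29 to 1.79) and 2.59 (2.32 to 3.00). Gpr27, an orphan receptor, had 3.45, 8.34 and 1.07 RPKM, from 61, 144 and 19 reads. Sfxn5, a mitochondrial sideroflexin, had 6.63, 13.9 and 3.76 RPKM. These 3 genes had more distance to 5 days than to 0 days.

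Of the other genes with a peak value above 1, Gm12505 and F830002L21Rik are long non-coding RNAs with 11.0 and 3.13 RPKM at 3 days, and Gpr137c had 1.00, 2.19 and 1.03 RPKM. The gene 6430548M08Rik was well counted, with 1478, 2914 and 1376 reads or 17.1, 34.6 and 15.9 RPKM. Among the abundant members, Kctd12, an adaptor of GABA-B receptors also present in leukocytes, had 76.9, 124 and 76.2 RPKM. Ccpg1, a receptor for autophagy of the endoplasmic reticulum, had 58.9, 91.2 and 44.8 RPKM, and B430306N03Rik had 27.0, 48.0 and 27.1 RPKM. Of the 100 members, 94 are protein coding and 4 are long non-coding RNAs by RefSeq, and 2 had no entry.

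How the members stood at 5 days relative to 0 days depended on the processing. The log2 ratio of 5 over 0 days, which is the difference between the ratios the rule used, had a median of -0.13 over the members and 0.34 over all tested genes. As deposited, it lay within 0.5 of 0 for 71 members, where 47.4% of all tested genes did. It was below -1 for 17 members, where 4.43% of all tested genes were, and above 1 for 3 members, where 15.6% were. The 3 genes were Tlr5, Aff2 and Skil, and each had fewer than 200 reads at 3 days. After TMM scaling the median of the members was -0.43 and 54 members lay within 0.5 of 0, where 54.5% of all tested genes did. With that scaling 22 members were below -1, where 8.04% were, and none was above 1, where 7.09% were. With a smooth trend with gene length removed, the median was -0.67, 28 members lay within 0.5 of 0, where 63.9% of all tested genes did, and 29 were below -1, where 6.76% were. A share of members near their 0-day level above that of all tested genes was therefore found in the deposited values and neither after TMM scaling nor with the length trend removed.

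The 17 genes far below 0 days included 3 of the interferon-related group (Slfn4, Trim30b and 2010002M12Rik) and 5 phagocyte genes (Cxcr2, Cd300ld, Mmp9, Nlrp12 and Trpm2). The others were Dhrs9, Gpr27, Sycp2, Mcam, Dnahc6, Col1a1, Fam123a, Lct and Osgin1. Osgin1, an oxidative stress-induced growth inhibitor, had 15.96, 24.1 and 4.68 RPKM, a ratio of 5 over 0 days of -1.75 (-2.05 to -1.50). The lowest ratio was that of 2010002M12Rik at -1.98. The median ratio of 3 over 0 days of the 17 genes was 0.82, close to the 0.85 of all members.

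The deposited tables print terms of the Gene Ontology beside the genes, and 85 members and 9113 tested genes had one. The term intrinsic to membrane was attached to 21 of the 85 members (24.7%) and to 1458 of the 9113 genes. Signal transducer activity was attached to 9.41% of the members and 3.13% of the genes, membrane to 7.06% and 5.80%, nucleic acid binding to 9.41% and 10.7%, and intracellular membrane-bounded organelle to 7.06% and 27.1%. The protein-coding members were spread over the chromosomes, with 14 of 94 on chromosome 2. That chromosome holds 808 protein-coding genes among the 10603 tested genes.

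Gene length moved with the measure. Over all tested genes, the median log2 ratio of 3 over 0 days was -0.45 in the shortest length decile and 0.55 in the longest, and that of 3 over 5 days was -0.12 and -0.31. The smaller of both had a median of -0.50 in the shortest decile and between -0.38 and -0.31 in the others. The members had a median length of 3465 bases compared with 2859 for all tested genes, with 17 and 14 of them in the longest deciles, 9 and 10, and 4 and 2 in the shortest deciles, 1 and 2. After a smooth trend with length was taken out of each ratio, 15 of the 21 genes with a peak value above 1 kept it. The part of length in the single values was not tested.

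With the trend removed, the ratios of 3 over 0 days were 1.83 for Cd101, 1.31 for Mmp25, 1.51 for Olfm4 and 1.05 for Cd33, and those of 3 over 5 days were 2.98, 1.98, 1.56 and 1.80. The ratio of 3 over 0 days was then 0.53 for Oas2, 0.30 for Oas3 and 0.34 for Itgam. Of the 100 members, 53 were among the 100 highest genes computed in this way.

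**Figure D5:**
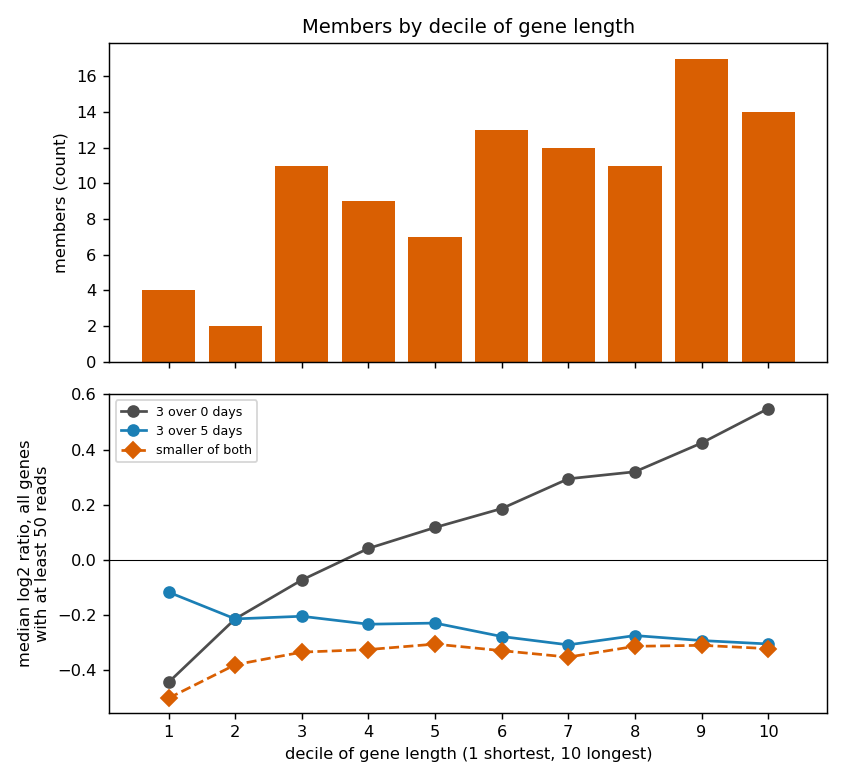
Number of members in each decile of gene length (top, count) and, over all genes with at least 50 reads at 3 days, the median log2 ratio of 3 over 0 days, of 3 over 5 days and of the smaller of both (bottom), from the shortest decile (1) to the longest (10). Members are most frequent in decile 9 (17 genes), and the ratio of 3 over 0 days goes from -0.45 to 0.55.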

How the data were processed

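BM cells from mice with 0, 3 or 5 days of LECT2 were sequenced, with 1 library per time point, and samples were grouped by their titles. The authors deposited 3 tables of pairwise comparisons, which list for each gene the whole read counts, the RPKM made from these counts, a log2 ratio and its significance. The ratios and their significance were not used. For genes without reads the deposited RPKM is 0.01, which was replaced by 0. The submitters' processing notes name the mouse build mm8, so no position from the tables was used, and the methods name Cufflinks for quantitation. At 3 days, 1 read on 1000 bases is worth 0.0660 RPKM.

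Ratios were log2 of RPKM + 0.1, and a ratio of counts has a 95% exact Clopper-Pearson interval. The members and the 30 gene lists were chosen with earlier results of these data known, and the groups by role after the members' values were seen. Named genes were the 25 with the highest peak value, the 15 with the highest RPKM, the 10 with the most reads, members in a list, and the 3 genes on either side of the end of the set. Other genes were chosen after their values were seen. Alternatives were pseudocounts of 1 and 0.01, minima of 20 and 200 reads, edgeR (4.0.16) TMM factors, DESeq2 (1.42.0) size factors, scaling without the 100 most abundant genes, a lowess length trend (statsmodels 0.14.6, span 0.3) and summed rows. RefSeq promoter windows were matched by gene ID for 86 members and not for 14.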

Additional observations from a re-analysis of the deposited data

How the results depend on the processing

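The count of 21 genes with a peak value above 1 was 9 with a pseudocount of 1, 33 with at least 20 reads at 3 days and 10 with at least 200 reads, and lay between 14 and 25 under the other alternatives. The minimum of reads sets how many weakly counted genes enter. With the length trend removed, the median over the members was 0.60 for 3 over 0 days (0.85 as reported) and -0.67 for 5 over 0 days (-0.13 as reported), and for the latter the cause was not tested. The medians of 3 over 5 days stayed between 0.82 and 1.28. Of the members, 53 to 99 were among the 100 highest genes of each alternative. No paired analysis was possible because each time point has 1 library, and for the same reason no library could be left out. Depth limits the members with fewer than 100 reads, 16 of 100.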
